A study of Mus musculus with 16 samples.

Results

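The genes described here code for 9 neuropeptide precursors of the hypothalamus: Avp, Oxt, Pomc, Agrp, Npy, Hcrt, Pmch, Cartpt and Trh. They were taken by symbol from a table of read counts for 24062 genes, and each of the 9 symbols was found in it and in a companion FPKM table (fragments per kilobase, adjusted for library size). Libraries came from whole brains, cerebellum included, of 16 female C57BL/6J mice killed on postnatal day 45, 4 mice per group and 1 library per mouse. WW (Water-Water) mice had only water. NW (Nicotine-Water) mice drank nicotine at 200 µg/ml for 22 h a day. Water-Ethanol mice, marked by their initials in the plots, had 20% v/v ethanol in 3 daily sessions of 2 h from postnatal day 42 and a last session of 4 h that ended with dissection, under the drinking-in-the-dark protocol. NE (Nicotine-Ethanol) mice had both. WW and NW mice had water in the same sessions, during which no group had its nicotine bottles.

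These peptides are made as larger precursors, cut by proprotein convertases and stored in dense-core granules before release. Each is made by small sets of hypothalamic neurons that govern water balance, feeding, arousal and the pituitary, although Npy, Cartpt, Trh and a few others are also made elsewhere in the brain. Vasopressin and oxytocin neurons send axons to the posterior pituitary, whereas Pomc is made both by arcuate neurons and by cells of the pituitary itself, so pituitary tissue left on a brain can add Pomc reads. In bulk tissue, fewer cells of a type and less RNA per cell cannot be told apart.

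Avp and Oxt are the pair in which reads could be assigned to the wrong gene. They lie tail to tail on chromosome 2 of GRCm38 with 3623 bases between them, Avp on the minus strand from 130580677 to 130582541 and Oxt on the plus strand from 130576169 to 130577053. The stretch that codes for the 9-residue hormone itself differs between them at 5 of 27 bases, shown in capitals (coding strand, 5′ to 3′, GENCODE M21 transcripts):
Avp hormone: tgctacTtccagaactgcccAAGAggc
Oxt hormone: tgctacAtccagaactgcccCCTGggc
Their second exons, which code for most of the neurophysin carrier protein, were 95.5% equal, with 9 of 202 bases different. They are shown on the coding strand with differing bases in capitals, Avp at chr2:130581056-130581257 and Oxt at chr2:130576591-130576792:
Avp exon 2: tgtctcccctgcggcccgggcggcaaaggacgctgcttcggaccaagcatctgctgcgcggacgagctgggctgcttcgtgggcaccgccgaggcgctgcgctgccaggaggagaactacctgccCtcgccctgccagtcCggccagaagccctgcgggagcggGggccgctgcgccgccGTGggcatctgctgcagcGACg
Oxt exon 2: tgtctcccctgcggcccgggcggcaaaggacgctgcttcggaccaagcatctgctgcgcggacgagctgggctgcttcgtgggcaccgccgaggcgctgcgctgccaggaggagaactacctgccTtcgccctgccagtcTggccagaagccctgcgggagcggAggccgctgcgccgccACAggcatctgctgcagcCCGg
The longest identical stretch of the transcripts was 127 bases, and 0 of the 428 windows of Avp as long as the 150-base reads occurred in Oxt. A full-length read therefore held at least 1 base that told the genes apart, while a read trimmed to within that stretch did not. The counts of both genes carry that uncertainty.

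Total counts ran from 27100352 to 32880979 per mouse. Brain markers were abundant in every library (Snap25 from 68968 to 87575 counts), and 15 or 16 of 16 hypothalamic marker genes had a count in each mouse. The mean log2 level of the 10 hypothalamic markers that could be tested, centred over the mice, differed between groups by -0.02 to 0.02 (exact permutation tests, two-sided, p from 0.686 to 0.971). A cerebellar score of 8 genes was -1.83 in WW mouse 21 and -1.09 in NW mouse 10 and between 0.0928 and 0.30 in the other 14 mice. Among WW mice, mouse 21 had the highest level of 6 of the 9 peptide genes (Avp, Oxt, Npy, Hcrt, Pmch and Cartpt), and its part in the results was not tested beyond the values without it.

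Prl and Gh, the prolactin and growth hormone genes of the anterior pituitary, were checked in every mouse. Prl had 221 counts in NW mouse 10, 50 in WW mouse 19, 1 each in WW mouse 18 and NE mouse 5, and 0 in the other 12 mice, which at these depths allows up to 3 counts per library. Gh had 157 counts in NW mouse 10, 12 in WW mouse 19 and 0 in the other 14. These transcripts were thus present at more than 1 count in a single NW mouse and a single WW mouse. Other pituitary genes stayed at few counts, with at most 6 of Cga, 2 of Tshb, 1 of Pou1f1 and 0 of Fshb in any mouse, while Lhb (3 to 12 counts) and Lhx3 (1 to 12) had reads in all 16. All 13 pituitary genes summed to 389 counts in NW mouse 10, 70 in WW mouse 19 and 8 to 27 elsewhere, and the 11 genes other than Prl and Gh summed to 11 and 8 in those mice.

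Compared per transcript length, Npy had the highest level of the set, with 93.7 ± 8.48 FPKM (mean ± SD, n = 16 mice), above 96.8% of the genes in the FPKM table. Pmch followed at 21.01 ± 2.42, Avp at 19.5 ± 5.97, Oxt at 15.2 ± 3.08, Cartpt at 13.1 ± 1.26, Hcrt at 10.9 ± 1.94 and Trh at 7.79 ± 1.18 FPKM. Pomc lay far lower at 1.57 ± 0.590 FPKM and Agrp lowest at 0.470 ± 0.148. The ranges over mice did not overlap between Npy and Pmch, between Trh and Pomc or between Pomc and Agrp. Every other neighbouring pair in that order overlapped, and Pmch exceeded Avp in 10 of 16 mice.

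**Figure D1:**
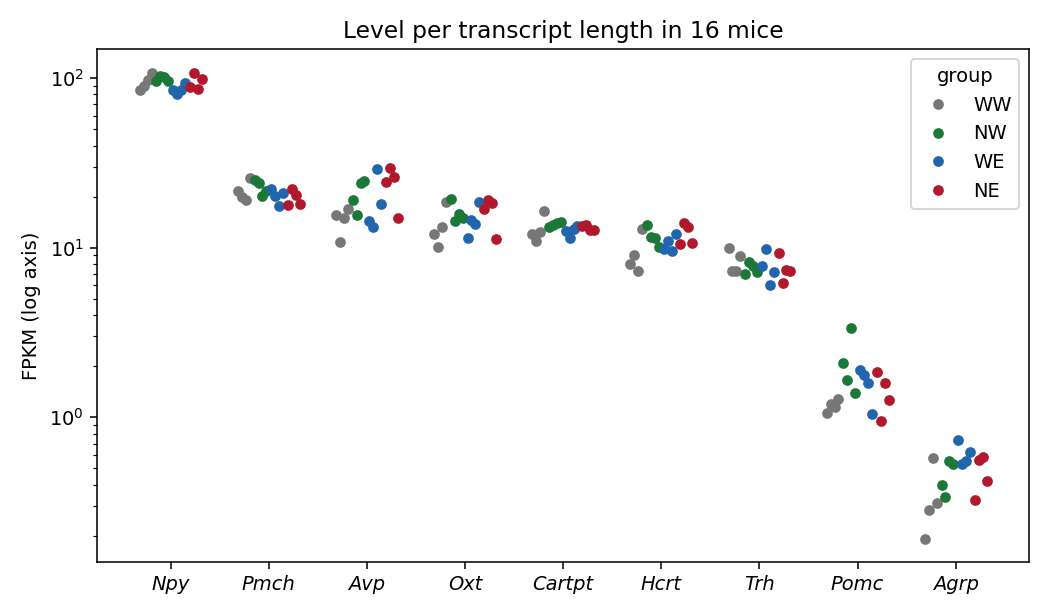
Level per transcript length (FPKM, log axis) of the 9 genes, ordered by mean, with 1 point per mouse coloured by group. Npy sits near 93.7 FPKM, apart from the others, and Agrp below 1 FPKM.

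Levels between groups are given as normalized counts, which are counts scaled to a common library size of 29538146 effective reads. Avp codes for vasopressin, the antidiuretic peptide. Its normalized counts were 185, 146, 176 and 201 in WW mice, 212, 187, 293 and 291 in NW mice, 161, 165, 337 and 219.9 in Water-Ethanol mice, and 284, 344, 293 and 168 in NE mice. WW mice lay close together, 3 of 4 NE mice and 3 of 4 NW mice lay above all of them, and every pair of groups overlapped. Water-Ethanol mouse 15 and NE mouse 5 stood away from the rest of their groups, the former high and the latter low.

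The group mean of Avp was 272 ± 74.3 in NE and 177 ± 23.3 in WW (SD, n = 4 each), and the fitted difference was 0.62 on the log2 scale (95% confidence interval 0.23 to 1.02), with an adjusted p of 0.129 by the quasi-likelihood test of edgeR. The exact permutation test of the same difference gave p = 0.114, and the smallest p that 4 against 4 mice allows is 0.0286. In NW the mean was 246 ± 54.2, and the log2 fold change against WW was 0.48 (interval 0.13 to 0.82, adjusted p = 0.394 in edgeR). DESeq2, with the same 8 mice, gave adjusted p = 0.023 for NE against WW, so the call of Avp there turned on the tool. It also turned on single mice: without NE mouse 5 the log2 fold change was 0.79 with adjusted p = 0.0472 in edgeR, whereas over all alternatives the adjusted p ran from 0.023 to 0.322.

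Water-Ethanol mice averaged 221 ± 82.2 normalized counts of Avp. Their log2 fold change against WW was 0.32 (interval -0.13 to 0.77, adjusted p = 0.415 in edgeR), and 0.04 without Water-Ethanol mouse 15. Between NE and Water-Ethanol, which shared the ethanol sessions, it was 0.30 (interval -0.18 to 0.79, adjusted p = 0.861), and 0.58 without mouse 15. The study reported that NE mice drank more ethanol in the last session and had higher blood ethanol than Water-Ethanol mice. Nicotine and ethanol intake thus cannot be told apart in this pair, on which the nicotine effect and the interaction also draw. The nicotine effect over all 16 mice, the average of the nicotine differences among water and ethanol drinkers, was 0.39 (interval 0.05 to 0.72, adjusted p = 0.411 in edgeR).

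Oxt codes for oxytocin, made by a separate set of magnocellular neurons in the same nuclei as vasopressin. Normalized counts were 120.0, 102, 132 and 184 in WW mice, 189, 143, 159 and 150.1 in NW mice, 113, 145, 138 and 184 in Water-Ethanol mice, and 167, 191, 182 and 113 in NE mice. All groups overlapped, the highest WW value was that of mouse 21, and NE mouse 5 was again the lowest of its group. Set against WW, the log2 fold change was 0.26 for NW (interval -0.11 to 0.63), 0.11 for Water-Ethanol mice (-0.28 to 0.51) and 0.29 for NE (-0.13 to 0.70), with adjusted p from 0.470 to 0.769 in edgeR. Without WW mouse 21 the NE value was 0.47 (adjusted p = 0.145) and the NW value 0.45 (adjusted p = 0.344), the lowest adjusted p of each over its alternatives, which reached 0.738 and 0.96.

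**Figure D2:**
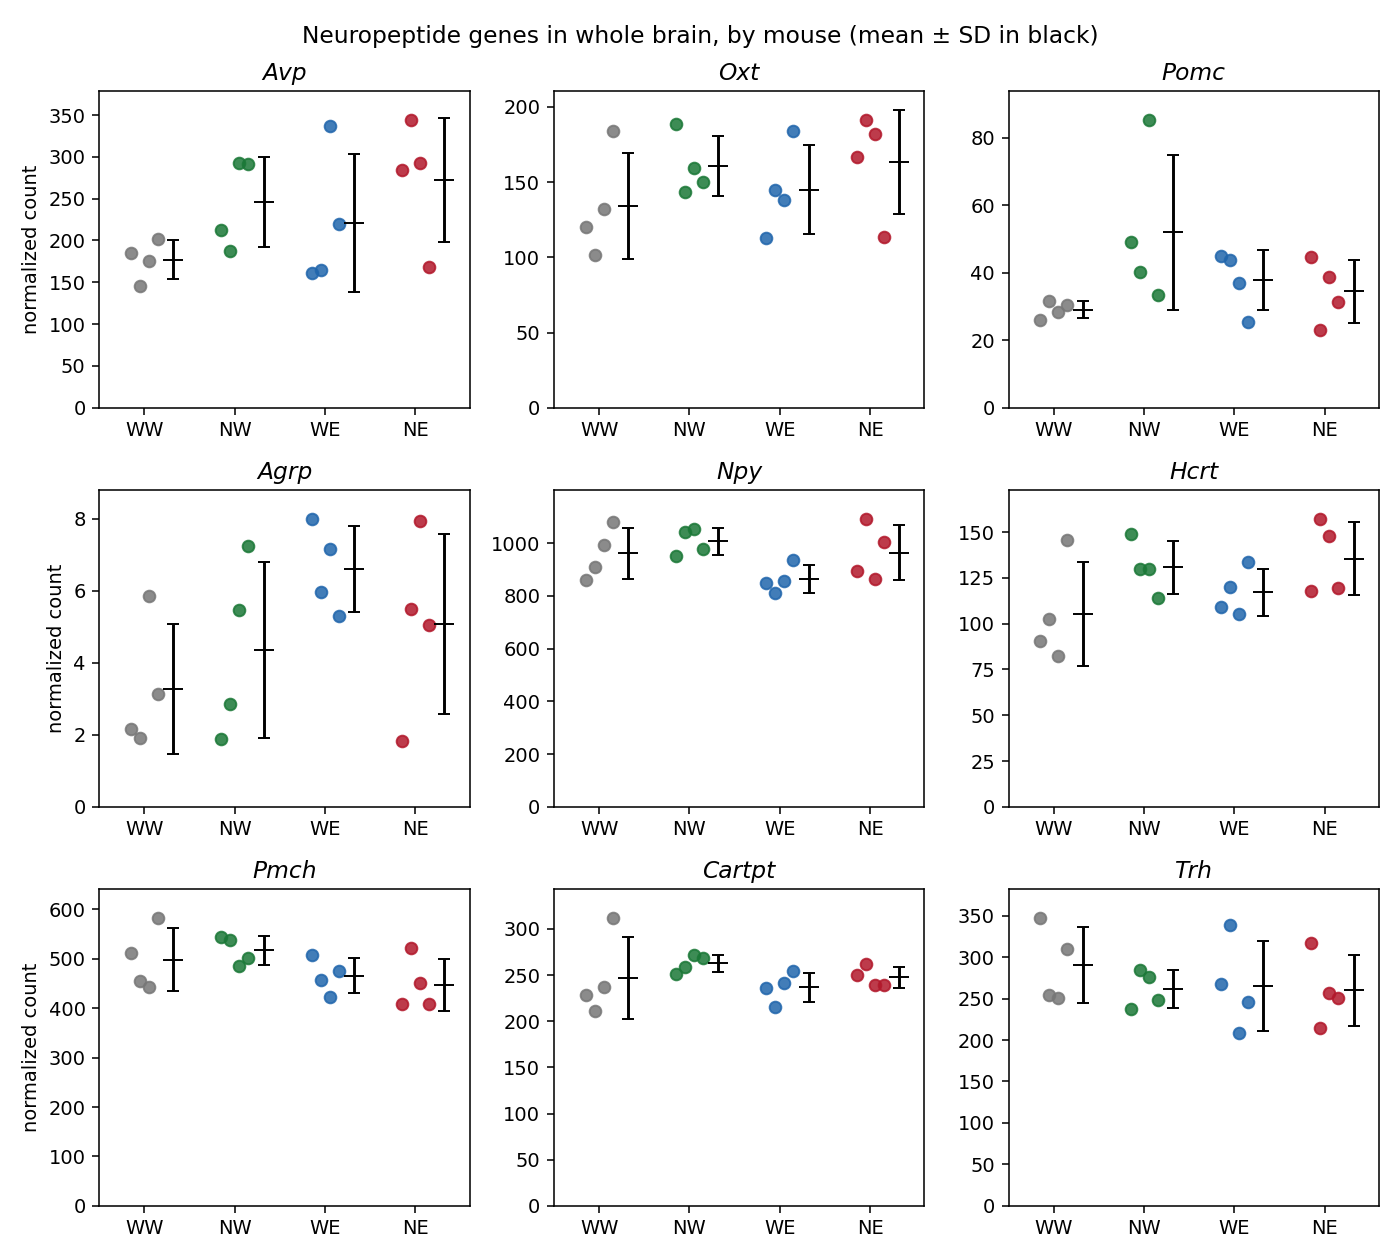
Normalized counts of the 9 genes in each mouse by group, with the mean ± SD (n = 4) in black and every axis starting at 0. The 4 NW mice lie above the 4 WW mice for Pomc, and NW mouse 10 is the highest point there at 85.2, and for Npy the 4 NW mice lie above the 4 Water-Ethanol mice, while every other pair of groups overlaps. Of all genes tested, 5.95% had NW and WW apart, and the share for NW and Water-Ethanol was not computed.

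Pomc codes for pro-opiomelanocortin, the precursor of the melanocortins that restrain feeding and of beta-endorphin. It lies on chromosome 12 from 3954945 to 3960643, and its reads were few, 21 to 78 counts per mouse. Normalized counts were 25.9, 31.7, 28.3 and 30.4 in WW mice, 49.0, 40.1, 85.2 and 33.5 in NW mice, 44.9, 43.7, 36.9 and 25.5 in Water-Ethanol mice, and 44.7, 23.1, 38.7 and 31.4 in NE mice. The 4 NW mice all lay above the 4 WW mice, while the 2 ethanol groups spread across both.

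The mean of Pomc was 29.1 ± 2.51 in WW against 52.0 ± 23.1 in NW, which edgeR fitted as 0.82 on the log2 scale (interval 0.21 to 1.43, adjusted p = 0.42). The exact permutation p was 0.0286, the smallest possible. DESeq2 gave an unadjusted p of 0.00729 and no adjusted value, because its own filter on low counts removed the gene. NW mouse 10, the mouse with 221 Prl and 157 Gh counts, also had the highest Pomc level of all 16 mice. Without it the log2 fold change was 0.48 (adjusted p = 0.447), and without both it and WW mouse 19 it was 0.52 (adjusted p = 0.564), while its adjusted p ran from 0.0823 to 0.781 over all alternatives. The other 3 NW mice, with 0 Prl and Gh counts, had Pomc at 33.5 to 49.0, and the highest WW value was 31.7. Prl and Gh are genes of the anterior pituitary, and whether pituitary tissue of any part added Pomc reads was not tested. Tbx19, which codes for the transcription factor of Pomc cells in the pituitary, had 2 counts in NW mouse 10 and at most 3 in any mouse.

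**Figure D3:**
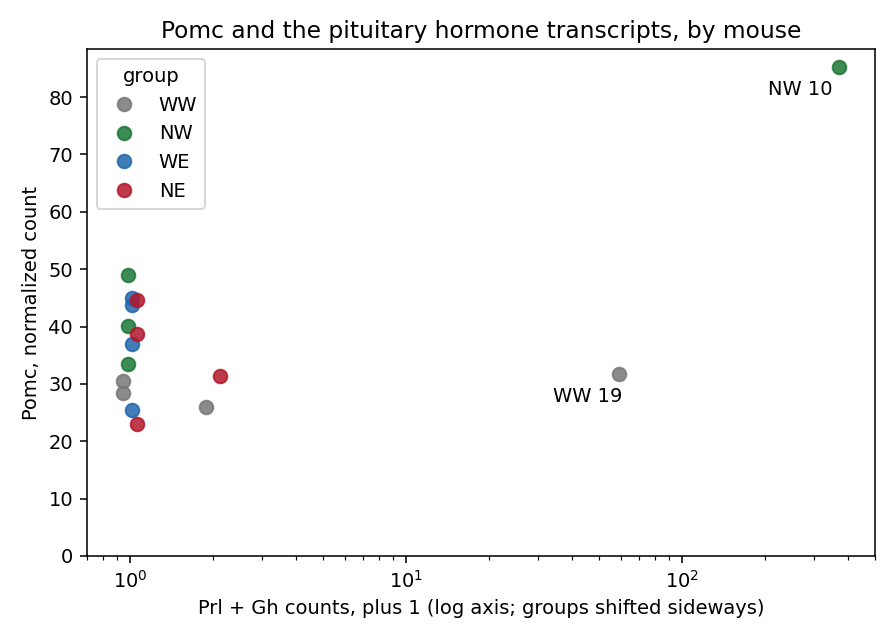
Normalized Pomc count of each mouse against its summed Prl and Gh counts plus 1 (log axis, with groups shifted sideways so that points do not cover each other). NW mouse 10 is highest on both axes, WW mouse 19 is second on the pituitary axis with a Pomc level of 31.7, and the other 14 mice are at or within 1 count of 0 pituitary counts with Pomc from 23.1 to 49.0.

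In Water-Ethanol mice the log2 fold change of Pomc against WW was 0.38 (interval -0.05 to 0.81, adjusted p = 0.319 in edgeR), and in NE mice 0.26 (interval -0.20 to 0.72, adjusted p = 0.569). The nicotine difference of Pomc was 0.94 lower on the log2 scale among ethanol drinkers than among water drinkers (fitted interaction -0.94, interval -1.74 to -0.13, adjusted p = 0.71). That difference was the sole one of the 8 tested genes with an unadjusted p under 0.05 for the interaction, and it was -0.61 without NW mouse 10 (adjusted p = 0.66).

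Agrp codes for agouti-related peptide, the melanocortin receptor antagonist of the hunger-promoting arcuate neurons that also make Npy. Whole-brain reads barely sampled it, with 2 to 8 counts per mouse, and it did not pass the filter on low counts in any comparison. Normalized counts ran from 1.92 to 5.87 in WW (median 2.65), 1.89 to 7.23 in NW (median 4.16), 5.31 to 7.99 in Water-Ethanol (median 6.57) and 1.82 to 7.94 in NE (median 5.28). The groups overlapped at this depth. With no filter, the contrast of Water-Ethanol with WW was 0.98 on the log2 scale (interval -0.03 to 1.98, adjusted p = 0.324 in edgeR).

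Npy, on chromosome 6, codes for neuropeptide Y, which promotes feeding from the arcuate nucleus and is also made by interneurons of cortex, hippocampus and striatum. It had 858, 911, 993 and 1082 normalized counts in WW mice, 952, 1044, 1053 and 977 in NW mice, 849, 811, 856 and 936 in Water-Ethanol mice, and 893, 1091, 864 and 1004 in NE mice. Water-Ethanol mice were the lowest group, with 3 of 4 below every WW mouse and all 4 below every NW mouse. The design does not set NW against Water-Ethanol, and the share of all genes apart in that pair was not computed. Every other pair of groups overlapped. The log2 fold change was -0.15 for Water-Ethanol against WW (interval -0.31 to 0.00, adjusted p = 0.263 in edgeR) and 0.16 for NE against Water-Ethanol (interval 0.00 to 0.31, adjusted p = 0.834). For NW and NE against WW it was 0.07 (interval -0.09 to 0.23) and 0.00 (interval -0.18 to 0.19).

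Cartpt, on chromosome 13, codes for the precursor of the appetite-restraining CART peptides, which many neurons outside the hypothalamus make as well. Its normalized counts were 228, 211, 238 and 312 in WW mice, 251, 259, 272 and 269 in NW mice, 236, 215, 242 and 254 in Water-Ethanol mice, and 249.8, 262, 239 and 239 in NE mice. WW mouse 21 was the highest of all 16, and the other groups lay inside the WW range. On the log2 scale it differed from WW by 0.09 in NW, by -0.06 in Water-Ethanol mice and by 0.01 in NE, with adjusted p from 0.822 to 0.985 in edgeR. Leaving out WW mouse 21 moved them to 0.22, 0.07 and 0.13, with adjusted p from 0.382 to 0.666.

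Hcrt codes for the precursor of the orexins, the wake-promoting peptides of the lateral hypothalamus, and lies on chromosome 11. It had 90.8, 103, 82.1 and 146 normalized counts in WW mice, 149, 130.0, 129.98 and 114 in NW mice, 109, 120.1, 106 and 134 in Water-Ethanol mice, and 118, 157, 148 and 119 in NE mice. Apart from WW mouse 21, every WW mouse lay below every mouse of the other 3 groups, and the share of all genes with that pattern was not computed. Without mouse 21 the number of all genes called rose from 70 to 797 in Water-Ethanol and from 48 to 283 in NE, and stayed 0 in NW, each against WW. The log2 fold change of Hcrt was 0.36 in NE (interval -0.01 to 0.74, adjusted p = 0.301 in edgeR), 0.31 in NW (interval -0.06 to 0.69, adjusted p = 0.653) and 0.16 in Water-Ethanol (interval -0.20 to 0.52, adjusted p = 0.638), each against WW. Without WW mouse 21 these became 0.56 (adjusted p = 0.0617), 0.51 (adjusted p = 0.292) and 0.35 (adjusted p = 0.129), and 0.49 for NE with the cerebellar score as a covariate (adjusted p = 0.0812), and over its alternatives the adjusted p for NE ran from 0.0617 to 0.543. Over all 16 mice the nicotine effect was 0.26 (interval 0.03 to 0.49, adjusted p = 0.422 in edgeR, permutation p = 0.042).

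Pmch codes for the precursor of melanin-concentrating hormone, made by lateral hypothalamic neurons that lie among the orexin cells. Part of its exon sequence, 434 bases on chromosome 10, is also annotated on the opposite strand as Parpbp, a gene with 6 to 20 counts here. Normalized counts of Pmch were 512, 456, 444 and 582 in WW mice, 545, 538, 485 and 501 in NW mice, 508, 458, 423 and 476 in Water-Ethanol mice, and 409, 522, 451 and 409 in NE mice. The groups overlapped, with 2 of 4 NE mice below every WW mouse. The ethanol effect over all 16 mice was -0.15 on the log2 scale (interval -0.29 to -0.02, adjusted p = 0.16 in edgeR, permutation p = 0.049). Relative to WW the log2 difference was 0.06 for NW, -0.09 for Water-Ethanol mice and -0.15 for NE, with adjusted p from 0.451 to 0.886.

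Trh, on chromosome 6, codes for the precursor of thyrotropin-releasing hormone. Normalized counts ran from 251 to 347 in WW mice (251, 254, 309.5 and 347), from 238 to 285 in NW mice (238, 248, 276 and 285), from 209 to 339 in Water-Ethanol mice (209, 246, 268 and 339), and from 214 to 317 in NE mice (214, 251, 257 and 317). WW had the highest mean and every pair of groups overlapped. Relative to WW its log2 difference was -0.15 for NW, -0.12 for Water-Ethanol mice and -0.15 for NE, with adjusted p from 0.598 to 0.756 in edgeR.

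**Figure D4:**
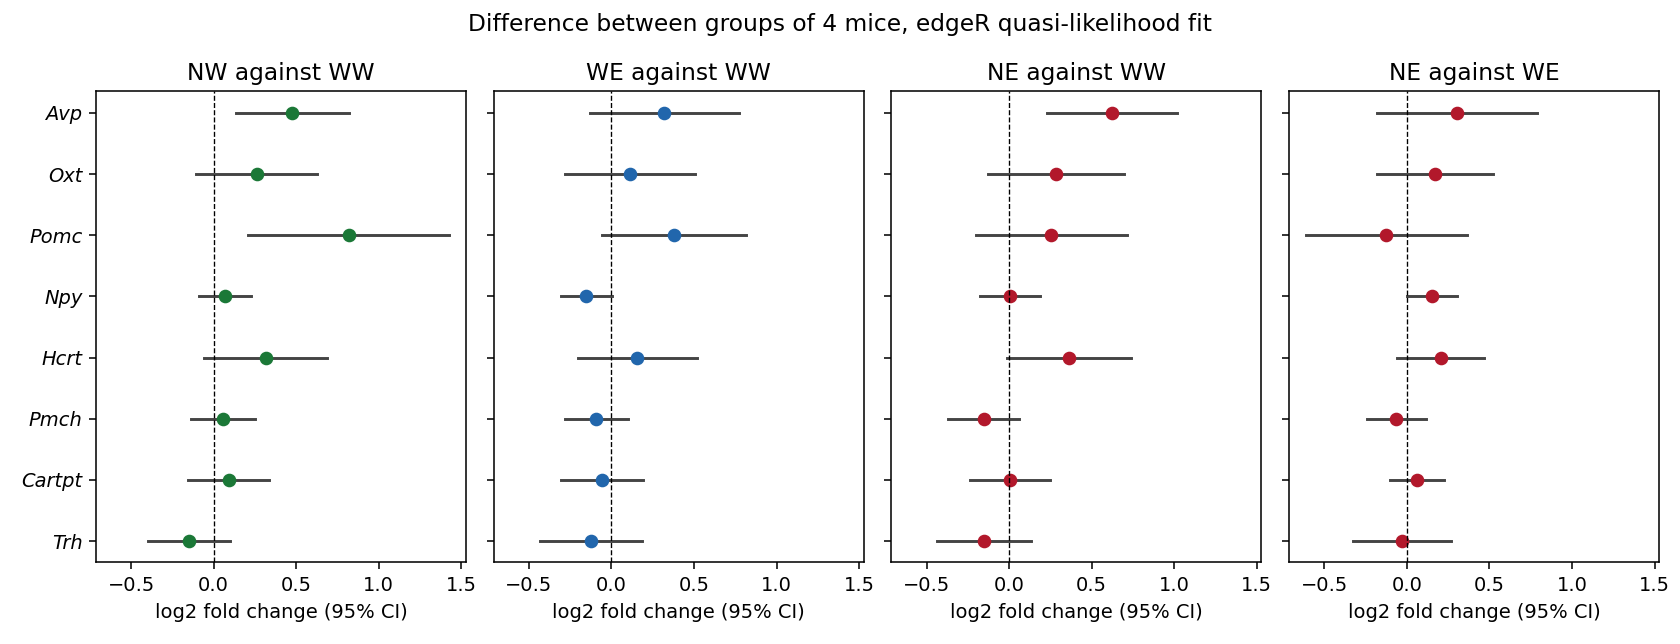
Log2 fold change (point) and 95% confidence interval (line) of the 8 genes tested, from edgeR's quasi-likelihood fit of 4 against 4 mice, with 1 panel per comparison and a dashed line at 0. The interval lies above 0 for Avp and Pomc in NW against WW, for Avp in NE against WW and narrowly for Npy in NE against the Water-Ethanol mice, and none of these passed the adjustment over all genes.

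Of the 8 peptide genes tested, 0 passed an adjusted p of 0.05 in edgeR in NW against WW, where 0.0% of all 15344 genes tested did. At an unadjusted p under 0.05 there were 2, Avp and Pomc, against 8.44% of all genes, and 1 gene, Pomc, had groups that did not overlap, against 5.95% of all genes. In NE against WW, 0 of 8 passed (0.313% of 15313 genes), 1 had an unadjusted p under 0.05 (Avp, 17.5% of genes) and 0 had groups apart (10.7%). DESeq2 called 1 there, Avp, beside 4.3% of the 11798 genes to which it gave an adjusted p, and limma on FPKM called 0. Pomc and Hcrt had no adjusted p from DESeq2 in NE against WW. In Water-Ethanol against WW, 0 passed (0.457% of 15323 genes), 0 had an unadjusted p under 0.05 (19.3%) and 0 had groups apart (10.8%).

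NE against Water-Ethanol gave 0 of 8 (0.0% of 15319 genes), with Npy alone at an unadjusted p under 0.05 (5.8% of genes) and 0 with groups apart (3.52%). The nicotine effect gave 0 of 8 (0.0% of 15592 genes), with Avp and Hcrt at an unadjusted p under 0.05 (10.3%). For the ethanol effect it was 0 of 8 (4.5%), with Pmch at an unadjusted p under 0.05 (22.9%), and for the interaction 0 of 8 (0.0%), with Pomc (6.76%). DESeq2 and limma each called 0 of these genes in every comparison other than NE against WW. Some genes had no adjusted p from DESeq2, such as Pomc in NW against WW and Pomc, Oxt and Hcrt in Water-Ethanol against WW. The 3 comparisons against WW share the same 4 control mice and are not independent of each other.

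Across the 8 genes the median log2 fold change was 0.18 in NW against WW, where 7 of 8 lay above 0, beside a median of 0.01 and 53.6% above 0 for all genes tested. In NE against WW it was 0.13 with 6 of 8 above 0 (all genes 0.00 and 51.4%), and in Water-Ethanol against WW 0.03 with 4 of 8 above 0 (all genes 0.00 and 50.6%). In NE against Water-Ethanol it was 0.11 with 5 of 8 above 0 (all genes 0.00 and 49.5%). For the nicotine effect it was 0.16 with 6 of 8 above 0 (all genes 0.00 and 52.0%), for the ethanol effect -0.07 with 3 of 8 (0.00 and 50.8%), and for the interaction -0.10 with 2 of 8 (0.00 and 50.2%).

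**Figure D5:**
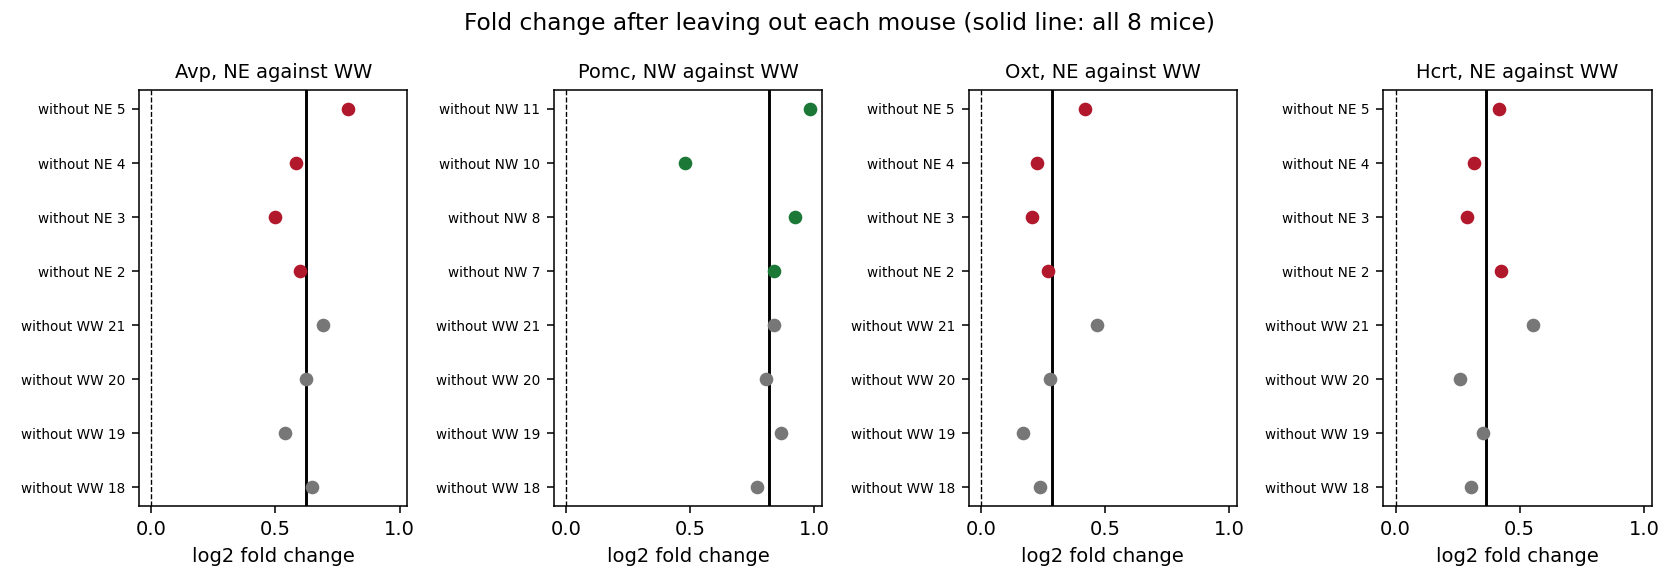
Log2 fold change of 4 named contrasts after leaving out each of the 8 mice in turn (points, coloured by the group of the mouse left out), with the value from all 8 mice as a solid line and 0 dashed. The Pomc value moves from 0.82 to 0.48 without NW mouse 10, the Avp value to 0.79 without NE mouse 5, and the Oxt and Hcrt values to 0.47 and 0.56 without WW mouse 21.

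Peptide levels were compared with the hypothalamic marker score over the 16 mice after removing group means. All values of a mouse come from the same library. Avp had a Pearson r of 0.66 (permutation within groups, p = 0.0458, adjusted over 9 relations 0.322) and a Spearman rho of 0.63 (p = 0.0369, adjusted 0.318), and r was 0.68 without Water-Ethanol mouse 13 and NE mouse 4, the 2 mice farthest from the median score. Oxt had r = 0.52 (p = 0.0716, adjusted 0.322) and rho = 0.51 (p = 0.0706, adjusted 0.318), and r was 0.42 without the same mice. The other 7 genes had r between -0.17 and 0.22, with p of 0.316 or more, and 0 of 9 relations passed the adjustment.

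Between the 8 genes with enough reads, 28 pairs were correlated in the same way. The median r was 0.13, from -0.36 to 0.74, and 0 pairs passed the adjustment over 28. Hcrt and Pmch, the pair from the lateral hypothalamus, had the highest r at 0.74 (permutation p = 0.00936, adjusted 0.118), with rho 0.71 (p = 0.00899, adjusted 0.117), and r was 0.57 without WW mice 20 and 21. Avp and Oxt had r = 0.54 (permutation p = 0.0568, adjusted 0.265), with rho 0.49 (p = 0.0761, adjusted 0.371), and r was 0.53 without Water-Ethanol mouse 15 and NE mouse 5. Oxt and Hcrt (r = 0.70) and Npy and Cartpt (0.70) had a higher r than Avp and Oxt. So did Oxt and Cartpt (0.64) and Hcrt and Cartpt (0.55). Of the 28 pairs, Npy and Cartpt had the lowest p for r (permutation p = 0.00597, adjusted 0.118). A high r was thus not limited to pairs from the same part of the hypothalamus.

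The genes whose log2 levels followed each peptide gene most closely over the 16 mice are given as a description, chosen as the highest of about 15591 genes in the same libraries. Npy was followed by Cck (r = 0.93), the cholecystokinin gene of cortical neurons, and by Dlg4 (0.92) and Fscn1 (0.91). Avp was followed by Camta2 (0.87), Ttbk1 (0.87) and Zmiz2 (0.86), Oxt by Gm1673 (0.85), Sh2d5 (0.82) and Agpat1 (0.80), and Cartpt by Kifc2, Chd3 and Camkv (0.85 each). For Hcrt they were Gpr123 (0.82), Sgta and Nop16 (0.79 each), for Pmch Ten1 (0.86), Psma7 (0.83) and Ranbp1 (0.82), for Trh Abcb1b (0.79), Cebpzos (0.78) and Snrnp27 (0.77), and for Agrp Senp2 (0.85), Ormdl3 (0.76) and Tifa (0.75). Pomc was followed by Acad10 (0.87), Snord22 (0.84) and Mir6236 (0.83), and these values were 0.77, 0.74 and 0.62 without NW mouse 10.

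Other genes of the peptide systems were counted from fixed lists. Of the 18 receptor genes found, 13 were tested and 0 passed in any of the 7 comparisons in edgeR, DESeq2 or limma, with 0 to 2 per comparison at an unadjusted p under 0.05 in edgeR, the 2 for the ethanol effect, where 22.9% of all genes had one. In NW against WW the lowest p was that of Npy2r, an inhibitory receptor for neuropeptide Y (log2 fold change -0.21, standard error 0.0922, adjusted p = 0.585). In NE against WW it was that of the oxytocin receptor gene Oxtr (0.22, standard error 0.0999, adjusted p = 0.282). All 12 genes for precursor processing and peptide breakdown were tested. Of these, Furin alone passed in any comparison, in edgeR and DESeq2 in the same 3 comparisons and in limma for the ethanol effect alone. Of all genes, DESeq2 called 5.14% in Water-Ethanol against WW and 7.83% for the ethanol effect, and limma 3.93% for the ethanol effect. At an unadjusted p under 0.05 in edgeR there were 5 of 12 in Water-Ethanol against WW (1 higher and 4 lower, 19.3% of all genes), 5 in NE against WW (2 higher and 3 lower, 17.5%) and 6 for the ethanol effect (2 higher and 4 lower, 22.9%). There were 3 in NE against Water-Ethanol and 3 for the interaction, all with positive values (5.8% and 6.76% of all genes), and 0 in NW against WW and for the nicotine effect.

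Furin codes for a proprotein convertase of the secretory pathway that cuts precursors of growth factors and receptors in most cells, and it is not specific to these peptides. Its normalized counts ran from 1162 to 1172 in WW, 1161 to 1219.8 in NW, 1330.5 to 1494 in Water-Ethanol and 1340.2 to 1493 in NE. All 8 ethanol drinkers lay above all 8 water drinkers, and the share of all genes apart in this way was not computed. Of all genes tested, 10.8% had groups apart in Water-Ethanol against WW and 10.7% in NE against WW. Furin rose by 0.29 on the log2 scale in Water-Ethanol (standard error 0.0453, adjusted p = 0.0357 in edgeR) and by 0.29 in NE (standard error 0.0436, adjusted p = 0.0372), both against WW, and the ethanol effect was 0.27 (standard error 0.0319, adjusted p = 0.000214). In Water-Ethanol against WW the call was lost without WW mouse 19 or 20 or any 1 Water-Ethanol mouse (adjusted p from 0.0504 to 0.13), and in NE against WW without WW mouse 18, 19 or 20 or NE mouse 2, 3 or 4 (0.073 to 0.175). The fold changes stayed between 0.27 and 0.32 with 1 mouse left out, and the ethanol effect was called under all 23 alternatives. Trhde, which codes for the enzyme that degrades thyrotropin-releasing hormone, had the lowest p of this list in NW against WW (-0.15, standard error 0.0758, adjusted p = 0.619).

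Of 9 dense-core granule proteins, 0 passed in any comparison with any of the 3 tools, with 0 to 2 at an unadjusted p under 0.05 in edgeR, the 2 for the ethanol effect (22.9% of all genes). The lowest p was that of Scg2 in NW against WW (-0.05, adjusted p = 0.805) and that of Scg3 in NE against WW (-0.07, adjusted p = 0.512). Of 22 other hypothalamic peptide genes, 13 to 15 were tested per comparison and 0 passed in edgeR or limma, with 0 to 6 at an unadjusted p under 0.05 in edgeR, the 6 of 15 for the ethanol effect (2 higher and 4 lower, 22.9% of all genes). DESeq2 called 2 for the ethanol effect, both lower, beside its 7.83% of all genes: Penk, the enkephalin precursor gene (-0.11, standard error 0.0358, adjusted p = 0.0315), and the somatostatin gene Sst (-0.13, standard error 0.0454, adjusted p = 0.0485). The same values in edgeR were -0.11 (adjusted p = 0.069) and -0.13 (adjusted p = 0.0819). Penk also had the lowest p in NW against WW (0.10, standard error 0.044, adjusted p = 0.591), with 5658 to 5938 normalized counts in NW and 5077 to 5587 in WW. These groups were apart, as they were for 5.95% of all genes tested. Gnrh1, the gonadotropin-releasing hormone gene, had the lowest p in NE against WW (0.90, standard error 0.296, adjusted p = 0.162), on 7 to 10 counts in WW and 11 to 24 in NE. Of all genes tested, 10.7% had NE and WW apart. The rise was not particular to NE, as the mean normalized count was 16.6 in Water-Ethanol and 15.5 in NE. Gnrh1 was not tested in Water-Ethanol against WW, and its ethanol effect was 0.75 (adjusted p = 0.0594 in edgeR).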

How the data were processed

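Total RNA was extracted by the authors from 16 whole brains. Libraries, made with an mRNA kit per the study's methods, were sequenced as single reads of 150 bases. Per the labels and the study's methods, reads were trimmed with Trimmomatic 0.32 after bcl2fastq 1.8.4 and aligned with TopHat2 to mm10 (GRCm38). The authors deposited whole read counts per gene, without normalization, and, made with Cufflinks, FPKM values scaled for length and library size. The counting program and its use of strand are not given in the sources used here, and the labels and the methods name different library kits, one of them stranded, so reads of overlapping genes on opposite strands may not be separated. The gene models are those of the counts table; its Avp model, 507 bases, is as long as the coding sequence alone.

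Counts were tested with edgeR 4.0.16 (quasi-likelihood test, TMM factors, filterByExpr with a minimum count of 10, Benjamini-Hochberg adjustment over all genes tested, threshold 0.05) in R 4.3.3. Each pair of groups was fitted on its own 8 mice, and the nicotine effect, ethanol effect and interaction on all 16. Normalized counts use TMM factors over 16 mice, and correlations use log2 counts scaled to library size (CPM) with a pseudocount of 0.5 counts, with 100000 permutations within groups. Mean log2 values were also compared by two-sided exact permutation tests. Scripts were tested on simulated data. Alternatives were RLE factors, no filter, DESeq2 1.42.0, limma 3.58.1 on log2(FPKM + 1) for genes with a mean FPKM of at least 0.1, a fit of all 16 mice, marker scores as covariates, and each mouse left out. One more, without NW mouse 10 and WW mouse 19, was chosen after seeing the data. The groups and mouse numbers come from the labels, and nothing links mice of different groups.

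The peptide genes and all lists were chosen with earlier results of these data known, and the study itself had named Avp and Pomc from these libraries. Named genes were all 9 members, Prl and Gh, and the 3 genes most correlated with each member. From the lists of receptors, processing, granule proteins and other peptides, each gene that passed in any comparison was named. Otherwise the gene with the lowest p in NW and in NE against WW was named. The marker lists were not part of this rule, and their genes that passed are not named. Sst lies outside this rule and was named after its values were seen. Mice per group number 4, and p-values set each difference against the spread between mice. In edgeR, DESeq2 and limma the estimate of that spread also draws on the other genes. Intervals for low counts cover counting error in part only.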

Additional observations from a re-analysis of the deposited data

Results flagged for a closer look

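In 52 checks of single mice within groups of 4, none of the 9 peptide genes had a mouse that stood apart by Dixon's criterion (gap over range above 0.829), and 7 other values did. Chance flags about 1 in 20 such groups where values are continuous, a rate that does not hold for Prl and Gh. Where 3 of 4 mice have 0 counts, any count in the other mouse is flagged, even a single read. Groups in which every mouse had 0 counts could not be flagged. Prl had 241 normalized counts in NW mouse 10 against 0 in the other 3 NW mice, and 48.0 in WW mouse 19 against at most 1.08 in the other WW mice. Gh had 171 in NW mouse 10 and 11.5 in WW mouse 19 against 0 in the rest of each group. The Prl value of NE mouse 5, 1.01, stood apart as a single read. A cerebellar marker score of -1.83 set WW mouse 21 apart from the other WW mice (0.0964 to 0.292), and one of -1.09 set NW mouse 10 apart from the other NW mice (0.222 to 0.300).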

How the results depend on the processing

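No peptide gene was called in 6 of the 7 comparisons under any alternative. A gene without an adjusted p counts as uncalled here. Among the comparisons against WW, DESeq2 gave none for Pomc in each of them, for Oxt and Hcrt in Water-Ethanol mice, and for Hcrt in NE. In NE against WW the number called was 0, and 1 (Avp) with DESeq2, and 0 to 1 with each mouse left out. Of 1040 alternative values for 56 fold changes of these genes, 997 kept their direction and stayed uncalled, 2 were called and 41 changed sign, and no fold change that changed sign was larger than 0.17 on the log2 scale. Of 9 relations with the hypothalamic score, 0 passed the adjustment with a pseudocount of 2 counts or on log2(FPKM + 1).

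With the cerebellar score as a covariate the sign turned for Cartpt in Water-Ethanol against WW (0.0407), Pmch in the nicotine effect (0.0084), and Pomc (0.0642) and Cartpt (0.0015) in the ethanol effect. Pmch in the nicotine effect was 0.0178 with limma. Without NW mouse 10 and WW mouse 19 it turned for Cartpt in NW against WW (-0.0041, against 0.02 to 0.2222 with 1 mouse left out) and in the interaction (0.0543), Pomc in the ethanol effect (0.0955) and Oxt in the interaction (0.0179). Correlations with the hypothalamic score turned for Agrp (-0.0256) and Pmch (0.0108) on log2(FPKM + 1), and for Npy (0.0714) without the 2 farthest mice.

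With each mouse left out in turn, values crossed 0 for Oxt (-0.02 to 0.30) and Cartpt (-0.13 to 0.0721) in Water-Ethanol against WW, Npy (-0.0595 to 0.0627) and Cartpt (-0.0628 to 0.13) in NE against WW, Pomc (-0.28 to 0.0164) and Trh (-0.14 to 0.11) in NE against Water-Ethanol, Pmch in the nicotine effect (-0.0412 to 0.0385), Pomc in the ethanol effect (-0.17 to 0.07), and Avp (-0.30 to 0.10), Oxt (-0.27 to 0.0474) and Cartpt (-0.15 to 0.04) in the interaction. The causes were not tested.

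The number of all genes called depended more on the setting. It was 0 in NW against WW, 121 with DESeq2, 112 in the fit of all 16 mice, 111 and 237 with the hypothalamic and cerebellar covariates. In Water-Ethanol against WW it was 70, 143 without a filter, 606 with DESeq2, 0 with limma, 28 in the fit of all 16 mice, 41 and 275 with the covariates, and 0 to 797 with each mouse left out, the highest without WW mouse 21. In NE against WW it was 48, 507 with DESeq2, 1 with limma, 243 with the cerebellar covariate, and 0 to 283 with each mouse left out, the highest again without WW mouse 21. The nicotine effect had 0, 98 with DESeq2 and up to 49 with a mouse left out, and the ethanol effect 702, 1073 with DESeq2, 1156 with the cerebellar covariate and 280 to 899 with a mouse left out. Furin lost its call with limma (adjusted p 0.113 in Water-Ethanol and 0.0611 in NE against WW). Agrp, at 2 to 8 counts, was beyond what this depth could compare. No paired analysis was possible because no mouse number is shared between groups.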

Other observations

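A score of 6 olfactory bulb marker genes was lower than in WW in every other group. The difference on the log2 scale was 0.38 in NW, 0.45 in NE and 0.46 in Water-Ethanol. Two-sided exact permutation tests gave p = 0.0286 for NW and for NE, the smallest possible, and p = 0.114 for Water-Ethanol. These p-values are unadjusted for the 20 score comparisons made. Between NE and Water-Ethanol, which differ in nicotine and, per the study, in ethanol intake, the score differed by 0.008. The lowest single score, -0.89, was that of Water-Ethanol mouse 15, the mouse with the highest Avp level of its group. NE mouse 4 (-0.65) and NW mouse 11 (-0.53) followed. Their part in the Avp values was not tested.

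Mir6236, one of the genes that followed Pomc, had 3844 normalized counts in NW mouse 10 and ran from 1260.5 to 3844 in NW, from 775 to 1076 in WW, from 1042 to 1223 in Water-Ethanol and from 894 to 1205 in NE. It was picked for following Pomc in these libraries, and 5.95% of all genes tested had NW and WW apart.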
